A study of Homo sapiens with 20 samples.

Results

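The arrays described here measured gene expression in MCF 10A cells transfected with a mimic of miR-4728-3p, set against the control cells of the same experiment. All 12 arrays of that experiment were used, 6 of the mimic and 6 of the control, of 20 arrays in the series, and all 48803 probes of the table entered the normalization. MCF 10A cells come from human breast epithelium and grow without limit in culture, yet do not form tumours. The mimic was a customized RNA of 25 nt, brought into the cells with a cationic lipid, Lipofectamine. The labels give a dose of 100 nM for every sample, while the methods allow 25 nM as well, and the methods place the harvest 32 h after transfection. The labels name a non-targeting siRNA as the control. The methods also list a control RNA of the length of the mimic. They place arrays of miR-1 and of a non-targeting control on a later version of the chip and every other array on v3.0, although the labels of both experiments name such a control. Which control RNA these arrays carried is thus not settled by the sources, so that mimic and control RNA may have differed in length as well as in sequence. Total RNA was hybridized to HumanHT-12 v3.0 bead arrays, and the replicates are described only as biological replicates. P-values therefore measure the spread between these samples, whatever its source.

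MicroRNAs are short RNAs that guide Argonaute proteins to messenger RNAs, mostly by pairing of their seed, bases 2 to 8, with the 3' untranslated region, and the paired transcripts are as a rule lowered modestly. The miR-4728 hairpin lies inside an ERBB2 intron, and ERBB2 is the receptor gene amplified in HER2-positive breast cancer. The study proposed that miR-4728-3p also pairs through an internal seed, bases 6 to 12. Double-stranded and other foreign RNA can separately induce type I and type III interferons in epithelial cells, which then switch on a large set of antiviral genes. The mature sequence is shown first, from RefSeq (GRCh38.p14, chr17:39726537-39726561, plus strand), once with the canonical and once with the internal seed in capitals, because these words define the genes expected to fall.
miR-4728-3p, canonical seed: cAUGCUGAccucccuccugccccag
miR-4728-3p, internal seed: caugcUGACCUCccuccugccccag

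Of 2370 mature miRNAs in that table, 0 others had the same bases 2 to 8, and 0 carried the internal word at bases 2 to 8. Bases 6 to 11 of miR-4728-3p were the bases 2 to 7 of 2 other miRNAs, miR-192-5p (chr11:64891203-64891223, minus strand) and miR-215-5p (chr1:220117916-220117936, minus strand). Their sequences are given with these shared bases in capitals, to show how far the internal seed resembles a seed used by other miRNAs. These belong to one seed family, and the base after the shared stretch differs from that of miR-4728-3p.
miR-192-5p: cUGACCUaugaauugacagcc
miR-215-5p: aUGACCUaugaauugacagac

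Before normalization, mimic arrays had median intensities of 113 to 134 and control arrays of 101 to 135, and 1 raw value, in a mimic array, was 0. After normexp correction with an offset of 50, quantile normalization and log2, arrays correlated across the 20919 tested probes by 0.982 to 0.990 among mimic arrays, 0.982 to 0.990 among control arrays and 0.962 to 0.981 between mimic and control arrays. A probe was tested if its mean lay above 6.36, the median of all log2 values. Each gene was read from its brightest tested probe, which gave 11820 genes. Of 15 markers of MCF 10A cells, 12 were tested (KRT6A, KRT17 and TP63 were not), and CD44 was the 1 that differed, being lower. Of 15 blood cell markers 6 were tested and CD68 was higher. The sum of the tested blood cell markers on the linear scale was 2484 to 3870 in mimic arrays and 1834 to 2578 in control arrays, while PTPRC, CD3D, CD3E, CD4, CD8A, ITGAM, HBB and NKG7 were among those below the filter. No tested marker of endothelium (3 of 9), fibroblasts (3 of 9) or muscle (1 of 8) passed the test.

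In cells transfected with the mimic, 449 genes were lower than in control cells past the limma test (adjusted p under 0.05), which is 3.80% of the genes tested, and 466 were higher, or 3.94%. The rises and falls were of different sizes. A list of 267 genes of the interferon response, 226 of them tested, held 161 of the rises (71.2% of its tested genes) and 2 of the falls (0.885%), PIM1, a protein kinase (-0.48), and PFKP, a glycolytic enzyme (-0.32), whose call was lost under some of the other settings tried. Outside this list, 447 of 11594 genes were lower (3.86%) and 305 were higher (2.63%). Among these 447 falls, 8 exceeded 1 on the log2 scale, 164 lay between 0.5 and 1 and 275 were smaller, with a median log2 fold change of -0.46. Among the 305 rises outside the list, 40 exceeded 1, 135 lay between 0.5 and 1 and 130 were smaller, with a median of 0.55. The values of mimic and control arrays did not overlap for 264 of these falls and 182 of these rises. Over all 11820 tested genes this held for 312 lower (2.64%) and 348 higher (2.94%). The test had picked these falls and rises by the same values, so their lack of overlap adds no evidence. Of all tested genes 56.1% had a log2 fold change below 0, and 57% outside the list, with a median of -0.02 over all genes.

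**Figure D1:**
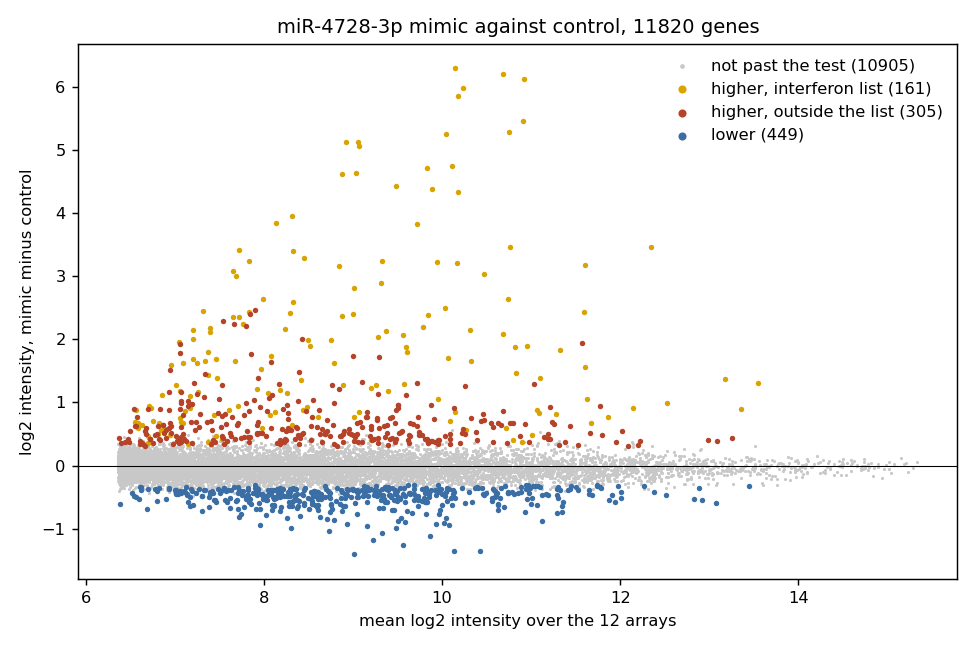
Each point is 1 of 11820 genes, with its mean log2 intensity over the 12 arrays on the x axis and the log2 intensity of mimic minus control on the y axis. Genes of the interferon list reach 6.29, rises outside it reach 2.47, and the falls reach -1.41.

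Falls were fewer among dim genes. When the tested genes were divided by their mean level into 4 bins of equal size, the bins from dimmest to brightest held 10, 87, 209 and 143 falls and 32, 139, 165 and 130 rises. Other probes of the same genes mostly had the same sign. For 143 of the 447 genes that fell outside the list, a further 175 probes were tested; 144 of them (82.3%) had a log2 fold change of the same sign, 36 (20.6%) were lower by the test and 0 were higher. For 92 of the genes that rose outside the list, 99 of 114 further probes (86.8%) had the same sign, 28 (24.6%) were higher by the test and 0 were lower. For genes outside the list that did not pass, 2168 of 3508 further probes (61.8%) had the sign of the gene and 64 (1.82%) passed in that direction.

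The interferon response is given here only as the setting of the other changes. Of 30 core genes 28 were tested and all 28 were higher, with a median log2 fold change of 4.36. Among the ligands, IFNL1, a type III interferon, averaged 9.19 in mimic arrays and 6.18 in control arrays, and IFNB1, a type I interferon, averaged 8.53 in mimic arrays and 6.09 in control arrays, all on the log2 scale. Both rose, with log2 fold changes of 3.01 (SE 0.22, adjusted p = 3.38e-10 from limma) and 2.44 (SE 0.24, adjusted p = 1.12e-07 from limma). Both control means lay under the filter limit of 6.36, so both genes were tested only because of their mimic values. These p-values are therefore no independent support for the rises. The size of the rises also depends on how dim signals were treated. The other settings gave 2.47 to 3.83 for IFNL1 and 1.93 to 3.30 for IFNB1. The sensors of foreign RNA RIGI and IFIH1 rose by 3.39 and 3.22 on the log2 scale. For the receptor chains IFNAR1 and IFNAR2 the log2 fold changes were -0.07 and -0.25, with adjusted p of 0.867 and 0.362 in limma. These 6 genes were chosen after their values were seen.

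The average of the core interferon genes differed among the mimic arrays. It was 12.47 and 12.25 in mimic replicates 2 and 5 and 11.66 to 11.93 in the other 4 mimic replicates, against 7.80 to 8.30 in the control arrays. The mean of the genes called lower was 8.70 and 8.79 in mimic replicates 2 and 5 and 8.83 to 8.91 in the other mimic replicates, against 9.31 to 9.35 in the control arrays. Thus the mimic arrays with the highest interferon genes also had the lowest values of the genes that fell. Mimic replicate 2 had the highest of the 6 mimic values for 21 of the 25 largest rises outside the interferon list and the lowest for 19 of the 30 largest falls. Without mimic replicate 2, 341 genes were lower and 400 higher, and without mimic replicate 5, 334 were lower and 395 higher. The part of the interferon response in the falls was not tested. Calls given below as lost under some settings had an adjusted p of 0.0149 to 0.05 in limma. All but 1 of them were lost without at least 1 single array. Such losses numbered 33 without mimic replicate 2, 32 without mimic replicate 5 and 30 without control replicate 3.

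PMEPA1, which restrains TGF-beta signalling by binding SMAD proteins, fell the most. Its log2 intensity was 8.05, 8.33 and 8.54 (lowest, median and highest) in the 6 mimic arrays and 9.40, 9.74 and 10.12 in the 6 control arrays. The groups lay far apart, and the log2 fold change was -1.41 (SE 0.12, adjusted p = 6.63e-09 from limma), so that the control level was 2.65-fold that of the mimic. ACO1 encodes cytosolic aconitase, which without its iron-sulfur cluster acts as iron regulatory protein 1 and binds messenger RNAs of iron metabolism. It ranged over 8.54, 9.57 and 9.99 in mimic arrays and 10.63, 10.84 and 10.96 in control arrays. The lowest mimic value, in replicate 2, lay well under the other 5. Its log2 fold change was -1.36 (SE 0.16, adjusted p = 2.39e-06 from limma). MRPL11, of the large subunit of the mitochondrial ribosome, ranged over 9.46, 9.76 and 10.03 with the mimic and 10.89, 11.08 and 11.41 in the control, again without overlap, with a log2 fold change of -1.35 (SE 0.12).

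BRI3BP had 8.80, 8.92 and 9.08 in mimic arrays and 9.86, 10.24 and 10.42 in control arrays, and the 6 mimic values lay close together. Its log2 fold change was -1.26 (SE 0.10). PID1, an adaptor with a phosphotyrosine-binding domain, had 8.15, 8.69 and 9.03 with the mimic and 9.10, 9.91 and 10.07 in the control. Here the groups came close, since the lowest control value was 9.10 and the highest mimic value 9.03, and the log2 fold change was -1.17 (SE 0.16). THOP1, a cytosolic peptidase that cuts short peptides, had 8.66, 8.80 and 8.92 with the mimic and 9.60, 9.86 and 10.15 in the control, with the least spread among the mimic arrays of the 8 genes that fell by more than 1. CREB3L2, a transcription factor held in the membrane of the endoplasmic reticulum until it is cleaved, had 8.01, 8.24 and 8.41 with the mimic and 8.88, 9.28 and 9.47 in the control. Their log2 fold changes were -1.06 and -1.03.

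**Figure D2:**
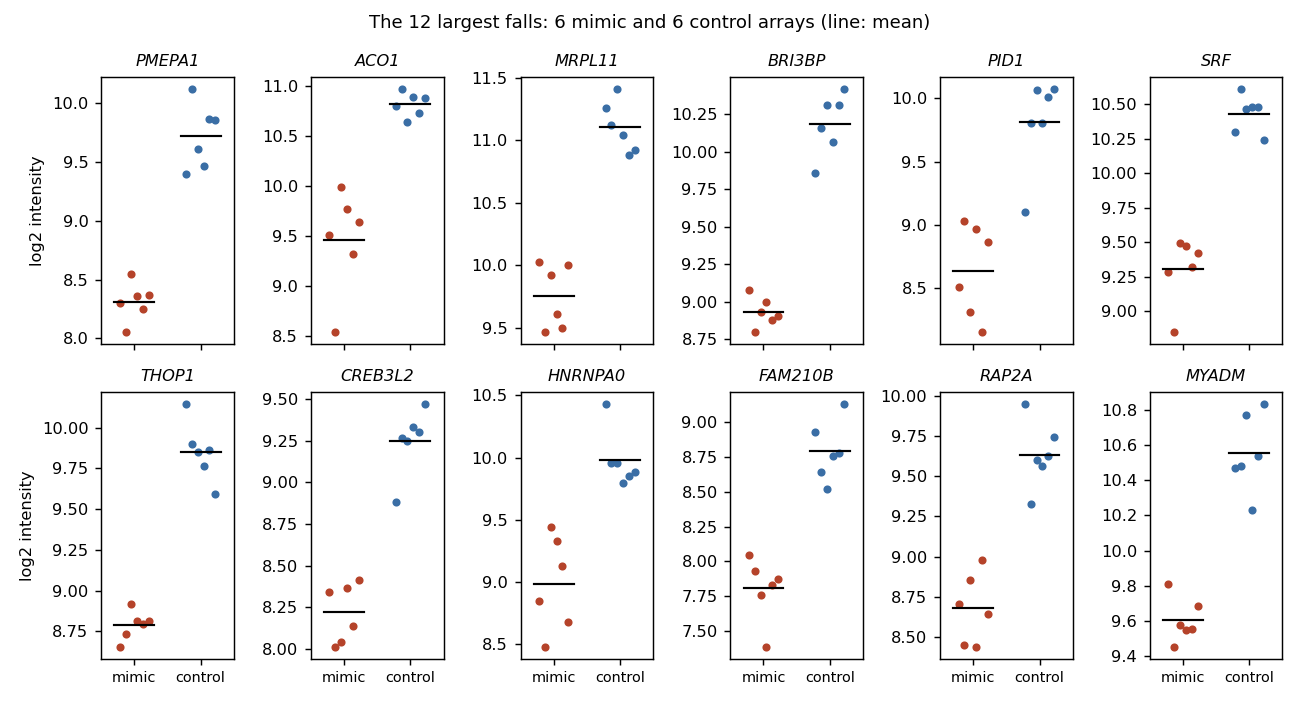
Log2 intensity of the 12 genes with the largest falls, with 6 mimic arrays on the left and 6 control arrays on the right of each panel and a line at the mean; each panel has its own y axis. The 12 genes, named by a rule that asks for no overlap between the groups, run from PMEPA1 (-1.41) to MYADM (-0.95).

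The other genes among the 30 largest falls whose groups did not overlap, the rule by which they were named, had log2 fold changes of -0.99 to -0.77. Among them were FAM210B, a mitochondrial membrane protein (-0.98), GTPBP3, which modifies mitochondrial tRNAs (-0.93), and SLC25A23, a carrier of ATP-magnesium and phosphate (-0.82). Others were RAP2A, a small GTPase (-0.95), FNBP1, a membrane-bending protein of the actin machinery (-0.87), FARP1, a guanine nucleotide exchange factor (-0.87), FERMT2, the integrin activator kindlin-2 (-0.83), and ENAH, which extends actin filaments (-0.77). HNRNPA0, an RNA-binding protein (-0.99), NCS1, a calcium sensor (-0.95), PPM1F, a protein phosphatase (-0.89), TXNDC12, a thioredoxin-like protein of the endoplasmic reticulum (-0.88), and MEF2D, a transcription factor related to SRF (-0.84), also fell. UBL3, a ubiquitin-like protein (-0.83), had overlapping groups and stood outside that rule. Also lower were NSFL1C, a cofactor of the VCP segregase (-0.81), and PEDS1, the desaturase that makes plasmalogens (-0.77). FAM171A1, NT5DC2, TMEM158 and TMEM138 fell by 0.92, 0.82, 0.78 and 0.77 on the log2 scale. RABL2B had -0.82, but its near copy RABL2A also fell (-0.73) and the probes may not tell the genes apart.

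SRF, the serum response factor, binds a short AT-rich element called the CArG box in the promoters of actin, contractile and growth factor-induced genes, its own among them. SRF had a log2 intensity of 8.85, 9.37 and 9.495 in mimic arrays and 10.24, 10.47 and 10.61 in control arrays. The lowest value, again in mimic replicate 2, lay apart from the other mimic arrays, and the groups did not overlap (log2 fold change -1.12, SE 0.11, adjusted p = 1.03e-07 from limma). Of 35 tested genes of SRF targets and the actin cytoskeleton, 6 were lower (17.1%, against 3.80% of all genes) and 0 higher, with a list median of -0.08. CCN2, a secreted matrix protein also known as CTGF, had 9.07, 9.62 and 9.92 with the mimic and 10.30, 10.54 and 10.59 in the control, a log2 fold change of -0.91 (SE 0.12). TAGLN, an actin-binding protein of smooth muscle, and FHL2, a LIM-domain coactivator, had -0.58 and -0.54, without overlap of the groups. CORO1C and CNN2, which also bind actin, had -0.37 and -0.35 with the mimic. The calls of CORO1C and CNN2 were lost under some of the other settings tried. CCN1, a relative of CCN2, had -0.29 (adjusted p = 0.105 from limma). ACTB itself had 14.35, 14.61 and 14.64 with the mimic and 14.34, 14.54 and 14.70 in the control, with full overlap.

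The CArG box was searched on both strands in windows from 250 bases before to 50 after each annotated start site of the RefSeq table (GRCh38.p14). It was present in at least one window of 8 of the 374 genes lower outside the interferon list that had a window (2.14%), of 1 of the 241 higher outside it (0.415%) and of 156 of all 9669 tested genes with a window (1.61%). A share near that of all tested genes is no property of the falls. The matching stretches of 7 of the 8 falls are given with the box in capitals, each on the strand of its gene, to show how the box differs between them. SRF, FHL2 and CNN2 are on the list above, and the others are not. SMTN, smoothelin, a protein of contractile filaments, NAV2, a neuron navigator protein, CPD, a carboxypeptidase, and RPS6KA2, a kinase downstream of ERK, had log2 fold changes of -0.51, -0.61, -0.56 and -0.50 and were named after their values were seen.
SRF, chr6:43171239-43171268, plus strand: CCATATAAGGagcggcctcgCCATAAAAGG
FHL2, chr2:105438595-105438624, minus strand: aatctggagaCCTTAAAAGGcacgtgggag
SMTN, chr22:31084942-31084971, plus strand: cggggccgggCCATATAAGGaaaagctagg
CNN2, chr19:1026509-1026538, plus strand: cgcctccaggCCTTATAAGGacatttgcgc
NAV2, chr11:20022513-20022542, plus strand: ggtatcatttCCTTTTTAGGttcagaaatt
CPD, chr17:30380298-30380327, plus strand: acactggagcCCAAAAATGGcagatgatat
RPS6KA2, chr6:166862607-166862636, minus strand: tcgtttagagCCAATTAAGGtaaaatagtg

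A list of proteoglycans and of enzymes of heparan sulfate synthesis had the highest share of falls among the 55 gene lists examined. Proteoglycans are core proteins that carry heparan sulfate or related chains and hold growth factors at the cell surface. Of 23 tested genes of this list, 6 were lower (26.1%, against 3.80% of all genes) and 1 was higher (4.35%, near the 3.94%). The list median was -0.16. SDC1, syndecan-1, had 10.69, 10.97 and 11.42 with the mimic and 11.48, 11.71 and 12.004 in the control, which did not overlap (log2 fold change -0.73, SE 0.12, adjusted p = 0.00016 from limma). SDC4, syndecan-4, had 8.75, 9.03 and 9.37 with the mimic and 9.31, 9.54 and 9.89 in the control, which overlapped slightly (log2 fold change -0.55, SE 0.11). GPC1, a glypican anchored by a lipid, and CD44, a hyaluronan receptor, had -0.49 and -0.47. Of the enzymes, EXTL3 and XYLT2, which start the chains, had -0.38 and -0.31, with calls lost under some settings, while EXT1, which extends them, rose by 0.64 on the log2 scale.

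Genes of amino acid supply and the integrated stress response moved in both directions. ATF4 is the transcription factor that switches on amino acid transporters and stress genes when translation initiation is restrained. Of 24 tested genes of its list, 5 were lower (20.8%, against 3.80% of all genes) and 2 higher (8.33%, against 3.94%). The list median was -0.14. SLC7A1, the transporter of arginine and lysine, had 9.84, 10.47 and 10.63 with the mimic and 10.82, 11.05 and 11.11 in the control, without overlap (log2 fold change -0.65, SE 0.12, adjusted p = 0.000578 from limma). SLC1A5, a glutamine transporter, STC2, a secreted glycoprotein, TRIB3, a pseudokinase, and CEBPG, a partner of ATF4, had -0.56, -0.53, -0.52 and -0.39, the last with a call lost under some settings. In contrast ATF3, a stress-induced transcription factor, had 7.19, 7.64 and 8.24 with the mimic and 6.46, 6.66 and 6.79 in the control (log2 fold change 1.03, SE 0.14). PPP1R15A, the phosphatase subunit that restores translation, rose by 0.59 on the log2 scale. The transporters SLC7A1 and SLC1A5 thus fell while ATF3 and PPP1R15A rose.

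Polyamine and nucleotide synthesis had 4 of 21 tested genes lower (19%, against 3.80% of all genes) and 0 higher, with a median of -0.12. ODC1, which makes putrescine, had 11.23, 11.92 and 11.99 with the mimic and 12.16, 12.25 and 12.41 in the control, with mimic replicate 2 the lowest and replicate 5, at 11.54, below the other 4 (log2 fold change -0.51, SE 0.12). IMPDH1, of guanine nucleotide synthesis, had -0.52. AZIN1, which protects ODC1 from degradation, and SRM, spermidine synthase, had -0.38 and -0.36, and both calls were lost under some other settings.

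Iron homeostasis joined the fall of ACO1 with that of TFRC, the transferrin receptor that brings iron into cells. TFRC had 12.41, 12.57 and 12.71 with the mimic and 12.95, 13.10 and 13.26 in the control, without overlap (log2 fold change -0.53, SE 0.09, adjusted p = 0.000498 from limma). FTL, the light chain of the iron store ferritin, had -0.27 (adjusted p = 0.109 from limma). SLC25A28, the iron importer of mitochondria, which is also on the interferon list, rose by 1.39 on the log2 scale. Of 13 tested genes, 2 were lower (15.4%, against 3.80% of all genes) and 1 higher (7.69%, against 3.94%). In the citric acid cycle, 2 of 22 were lower (9.09%, against 3.80% of all genes) and 0 higher. They were ACO1, whose product works outside mitochondria, and CS, citrate synthase (-0.39), whose call was lost under some settings.

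In the mitochondrial ribosome, 4 of 79 tested genes were lower (5.06%, near the 3.80% of all genes) and 1 was higher, with a median of -0.03. The fall of MRPL11 was therefore not shared by its complex. MRPS35 had 9.38, 9.63 and 10.00 with the mimic and 10.18, 10.25 and 10.76 in the control (log2 fold change -0.71, SE 0.12), and MRPS16 and MRPL34 had -0.52 and -0.43, with calls lost under some settings. MRPL17 rose by 0.33 on the log2 scale, also with a call lost under some settings. Of 45 genes of oxidative phosphorylation 0 were lower and 1, NDUFA9, was higher (0.50).

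TGF-beta response genes had 3 of 25 lower (12%, against 3.80% of all genes) and 2 higher (8%, against 3.94%), with a median of 0.04. Beside PMEPA1 and PID1, TGFBR3, the co-receptor betaglycan, had 8.42, 8.56 and 8.89 with the mimic and 9.03, 9.13 and 9.18 in the control (log2 fold change -0.51, SE 0.10). ID2, an inhibitor of basic helix-loop-helix factors, had 9.14, 9.31 and 9.94 with the mimic and 7.87, 8.22 and 8.54 in the control, a rise of 1.21 on the log2 scale (SE 0.14, adjusted p = 2.28e-06 from limma). THBS1, thrombospondin-1, which can activate latent TGF-beta, rose by 0.68.

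Inflammatory cytokines divided as well. Of 27 tested genes of NF-kB and cytokines, 3 were lower (11.1%, against 3.80% of all genes) and 4 higher (14.8%, against 3.94%). Of these 27 genes 8 are also on the interferon list, IL6 among them, and of the other 19, 3 were lower and 3 higher. The neutrophil chemokine CXCL8 had 10.28, 10.42 and 11.15 with the mimic and 11.02, 11.23 and 11.60 in the control, where 1 mimic array reached into the control range (log2 fold change -0.74, SE 0.14, adjusted p = 0.000934 from limma). CXCL1, a related chemokine, and IL1A, an epithelial alarmin, had -0.69 and -0.58, the call of CXCL1 being lost under some settings. IL6 had 7.54, 7.62 and 8.75 with the mimic and 6.53, 6.63 and 6.86 in the control (log2 fold change 1.17, SE 0.16). NFKBIZ, a nuclear regulator of NF-kB, SAA1, an acute phase protein, and IL1RN, the interleukin-1 receptor antagonist, rose by 0.77, 0.66 and 0.45 on the log2 scale.

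**Figure D3:**
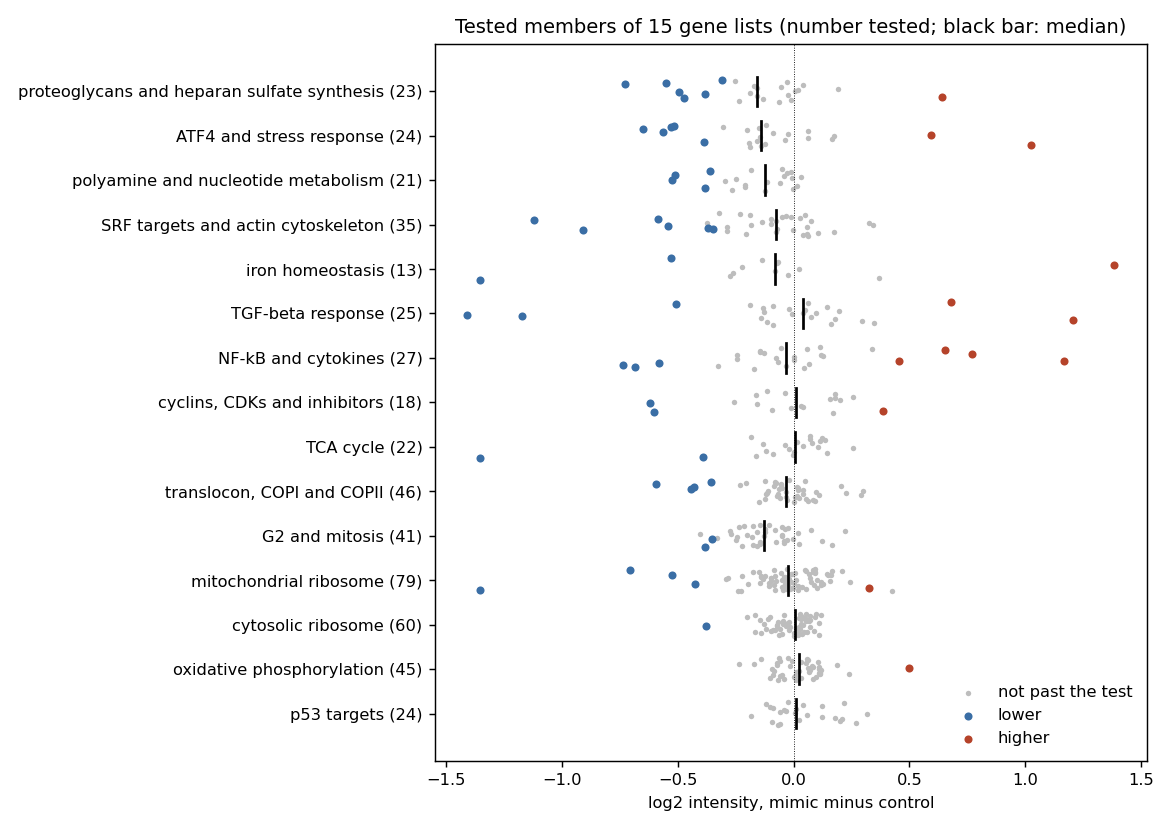
Log2 intensity of mimic minus control for the tested members of 15 gene lists, with the number tested in brackets and a black bar at the list's median; blue points were lower and red points higher at an adjusted p under 0.05, and grey points did not pass. The medians lie between -0.16 (proteoglycans) and 0.04 (TGF-beta response), while single members reach -1.41 and 1.39.

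Few single cell cycle genes passed the test. Of 18 cyclins, CDKs and inhibitors 2 were lower (11.1%, against 3.80% of all genes) and 1 higher (5.56%, against 3.94%). CDK6, which drives entry into S phase, had 9.40, 9.69 and 9.98 with the mimic and 10.07, 10.31 and 10.53 in the control (log2 fold change -0.62, SE 0.11). Its partner CCND2, cyclin D2, had -0.60 without overlap, while CCND3, cyclin D3, rose by 0.39 on the log2 scale. CCND1, cyclin D1, and the inhibitor CDKN1A had 0.17 and 0.20, with adjusted p of 0.452 and 0.258 in limma. Of 41 genes of G2 and mitosis 2 were lower (4.88%, near the 3.80% of all genes) and 0 higher, with a median of -0.13. They were AURKA, a mitotic kinase (-0.38), and CENPA, the centromeric histone (-0.35). Of 46 genes of DNA replication 2 were lower (4.35%, also near that share) and 0 higher: E2F2, a transcription factor of S phase (-0.46), and GINS2, of the replicative helicase (-0.36). The calls of CENPA, E2F2 and GINS2 were lost under some settings. Most genes of both lists had a log2 fold change below 0, 35 of 41 (85.4%) and 36 of 46 (78.3%), against 56.1% of all genes. Before adjustment (p under 0.05), 7 and 11 of them were lower and 0 and 1 higher, where 11.2% of all genes were lower and 8.1% higher. No tested gene passed the limma test on the lists of p53 targets (24 tested), fatty acid metabolism (23) or translation initiation and elongation (43). Nor did any of 23 zinc transporters and metallothioneins or 36 chromatin regulators. Before adjustment these lists held, in that order, 0, 1, 5, 1 and 3 lower and 4, 1, 1, 1 and 1 higher genes. The p53 list did not hold PMAIP1, which is given below among the rises. Of 60 cytosolic ribosomal proteins 1, RPL37, was lower (-0.38), with a call lost under some settings.

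Secretory transport had 4 of 46 genes of the translocon and of coat complexes lower (8.70%, against 3.80% of all genes) and 0 higher. SRP9, of the signal recognition particle, had 12.57, 12.78 and 12.94 with the mimic and 13.24, 13.35 and 13.59 in the control (log2 fold change -0.59, SE 0.10), without overlap. SEC62, SPCS3 and SSR3, which act in protein import into the endoplasmic reticulum, had -0.44, -0.43 and -0.36, with calls lost under some settings. In the Notch pathway 2 of 22 genes were lower (9.09%), HEY1, a target gene of Notch (-0.64), and LFNG, which adds sugars to Notch (-0.52), and 2 were higher (9.09%, against 3.94% of all genes), HES4, a repressor related to Notch targets (1.29), and APH1A, a subunit of gamma-secretase (0.41). RB1CC1, of the complex that starts autophagy, and PHLDA1, a gene induced by ERK signalling, had -0.57 and -0.51. AKR1C2, an aldo-keto reductase with close paralogs, had -0.55, and CDH2, N-cadherin, -0.53. CTSB, a lysosomal protease, had -0.52, while the lysosomal protease CTSO rose by 0.95 and SCARB2, a lysosomal membrane protein, by 0.54 on the log2 scale.

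Genes with a predicted site for the internal seed are those that the study listed from the 3' untranslated regions, by a word that it had found among genes lowered on these arrays, so their falls are not independent evidence. Of the listed genes 75 were tested, and 16 of them were lower (21.3%), against 3.69% of the 11745 genes not listed. By class of site, falls were 4 of 27 genes for 8mer sites (14.8%), 3 of 14 for 7mer-m8 (21.4%), 8 of 32 for 7mer-1A (25.0%) and 1 of 2 with both an 8mer and a 7mer-1A. In the usual use of these classes, an 8mer pairs with the whole word and is followed by an adenine, 7mer-m8 lacks the adenine and 7mer-1A lacks the last pair. Which word the classes refer to here is not settled. The study classes the ESR1 site as 7mer-1A but prints it as GAGGTCA, the complement of all of bases 6 to 12. The medians were -0.12 for 8mer, -0.01 for 7mer-m8 and -0.20 for 7mer-1A, against -0.02 for genes not listed. The 8mer class, with the longest sites, thus did not have the lowest median. No test was made between the classes.

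Beside MRPL11 and SDC1, MYADM, a protein of membrane rafts, had 9.45, 9.57 and 9.81 with the mimic and 10.23, 10.51 and 10.83 in the control (log2 fold change -0.95, SE 0.11, adjusted p = 9.58e-07 from limma). The groups did not overlap. PURB, which binds single-stranded DNA, had 8.57, 9.07 and 9.497 with the mimic and 9.52, 9.58 and 10.37 in the control, which almost touched (log2 fold change -0.71, SE 0.16). SRGAP3, a GTPase-activating protein, STK4, the Hippo kinase MST1, and TNFAIP1, an adaptor of a ubiquitin ligase, had -0.67, -0.62 and -0.62, and STK4 had 9.61, 9.76 and 10.07 with the mimic against 10.17, 10.40 and 10.71 in the control. SLC45A3, a sugar transporter known from prostate, PLAGL2, a zinc finger factor, and FOXA1, the pioneer factor of luminal breast cells, had -0.52, -0.49 and -0.43. RAB6A, ANAPC16, RAB11FIP1, SNX27 and SSR3, most of them of membrane traffic, lay between -0.44 and -0.36, and the calls of RAB6A, SNX27 and SSR3 were lost under some settings. IMPDH1, given above, was the other gene on the list that fell. FZD4, a Wnt receptor with a 7mer-m8 site, rose, with 7.12, 7.60 and 8.90 with the mimic and 6.52, 6.63 and 6.93 in the control (log2 fold change 1.14, SE 0.19).

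**Figure D4:**
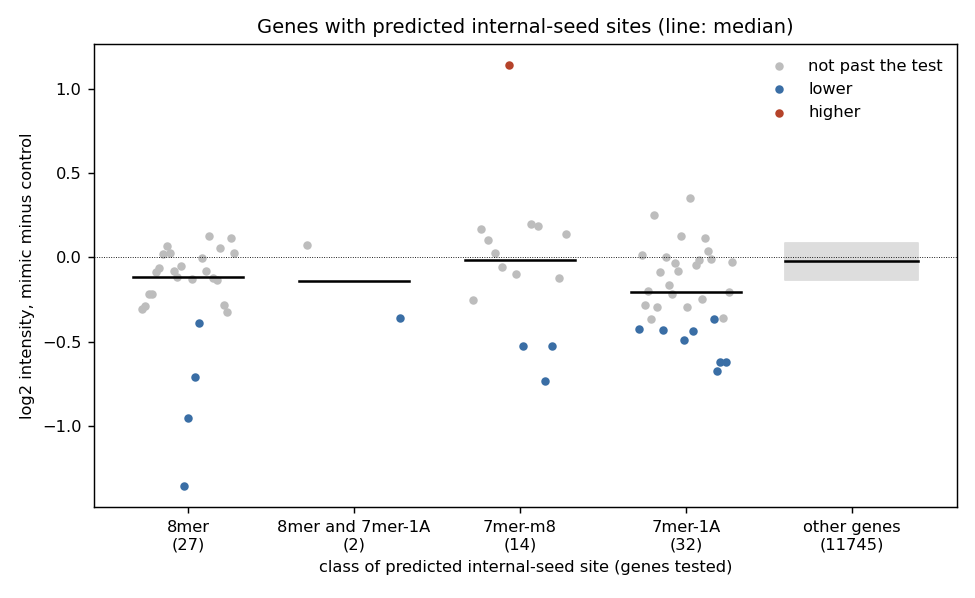
Log2 intensity of mimic minus control for 75 tested genes with a predicted internal-seed site, by class of site on the x axis, with a line at the median; the grey box gives the middle 50% of the 11745 other genes, between -0.13 and 0.09. Falls occur in each class, with 4 of 27 for 8mer and 8 of 32 for 7mer-1A.

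ESR1, the estrogen receptor and a gene of interest to the study, was too dim to be tested, with averages of 6.27 in mimic arrays and 6.36 in control arrays on the log2 scale. Of 10 tested estrogen-responsive genes 0 passed the limma test. Before adjustment (p under 0.05) 2 were lower and 0 higher, where 11.2% of all genes were lower and 8.1% higher. ERBB2, the host gene, had 9.07, 9.15 and 9.24 with the mimic and 8.85, 9.09 and 9.17 in the control, which overlapped (log2 fold change 0.09, SE 0.09, adjusted p = 0.733 from limma). EGFR had a log2 fold change of -0.30 (SE 0.12, adjusted p = 0.167 from limma). USP1, a deubiquitinase with a predicted 8mer site, had -0.33 (SE 0.13, adjusted p = 0.165 from limma). A dimmer tested probe of each gene had -0.41 for EGFR and -0.38 for USP1 (adjusted p = 0.0749 and 0.216 from limma). The reference gene GAPDH had 0.02 (SE 0.09).

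Among the rises outside the interferon list, CYP2J2, a cytochrome P450 that epoxidizes arachidonic acid, was first. It had a log2 intensity of 8.40, 8.84 and 10.37 with the mimic and 6.51, 6.65 and 6.87 in the control, a log2 fold change of 2.47 (SE 0.22, adjusted p = 1.69e-08 from limma). The mimic arrays spread over almost 2 log2 units, and the control arrays lay near the filter limit of 6.36, and over the other settings tried the log2 fold change ranged between 2.10 and 2.96. PLAAT4, a phospholipase that also acts as a growth suppressor, behaved alike, with 8.37, 8.90 and 10.09 with the mimic and 6.48, 6.68 and 6.77 in the control (log2 fold change 2.41, SE 0.20). In both genes the highest values were those of mimic replicates 2 and 5. TRANK1, GCA, a calcium-binding protein of granules, and PLEKHA4 had log2 fold changes of 2.30, 2.25 and 2.21, from control means near the limit, and that of TRANK1 was 1.87 to 2.92 under the other settings.

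MAFA, a transcription factor known from insulin-producing cells, differed in its spread, with 9.06, 9.45 and 9.88 with the mimic and 7.17, 7.34 and 7.74 in the control (log2 fold change 2.01, SE 0.13, adjusted p = 6.24e-11 from limma). NT5C3A, a nucleotidase for pyrimidine nucleotides, was well above the limit in both groups, with 11.94, 12.42 and 13.19 with the mimic and 10.40, 10.61 and 10.85 in the control (log2 fold change 1.93, SE 0.16). RASGRP3, an activator of Ras, CH25H, which makes 25-hydroxycholesterol, and LMO2, a cofactor of blood cell transcription factors, rose by 1.92, 1.79 and 1.76 on the log2 scale, and the noncoding RNA HCP5 of the HLA region by 1.73. The control means of RASGRP3 (6.09) and CH25H (6.16) lay under the limit, so both passed the filter only through their mimic values. Their log2 fold changes were 1.47 to 2.70 and 1.37 to 2.54 under the other settings. The interferon list was not exhaustive: CH25H, NT5C3A and TRANK1, among others, are known from other work to be induced by interferon. With the list cut to its core of 30 genes, 438 genes would count as rises outside it.

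**Figure D5:**
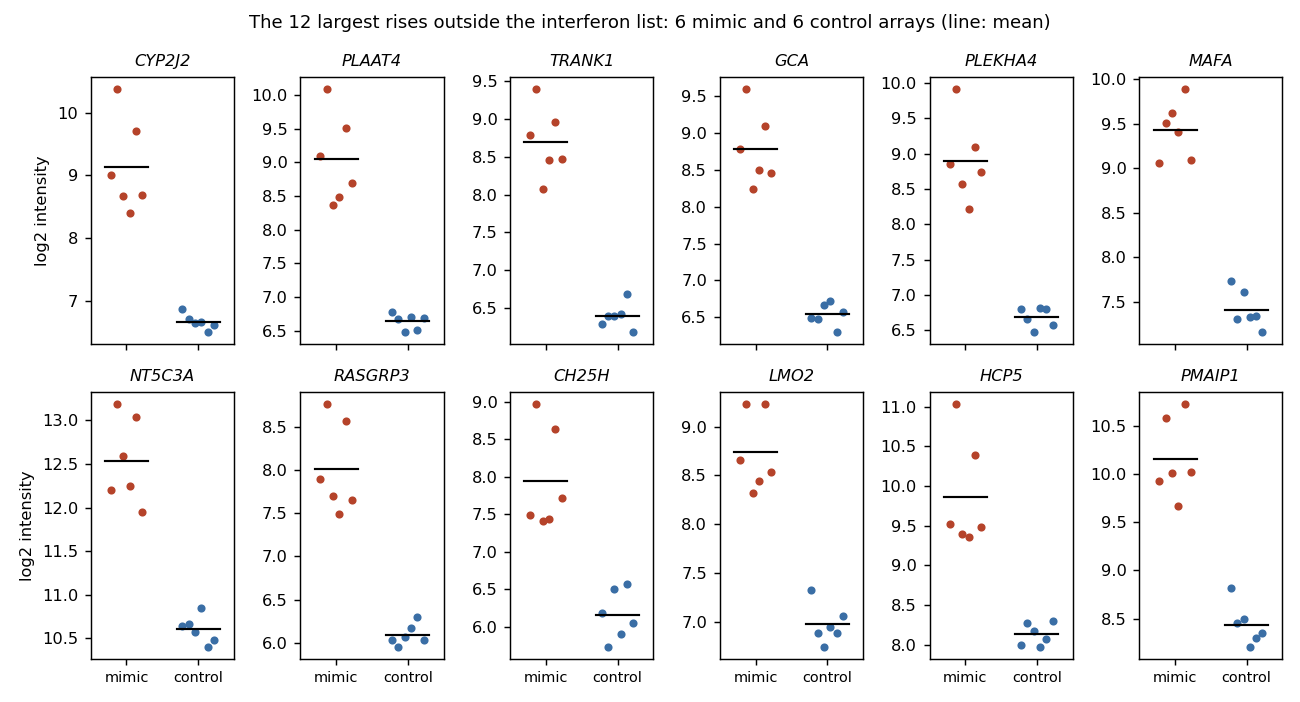
Log2 intensity of the 12 genes with the largest rises outside the interferon list, with 6 mimic arrays on the left and 6 control arrays on the right of each panel and a line at the mean; each panel has its own y axis. The 12 genes, named by the same rule, run from CYP2J2 (2.47) to PMAIP1 (1.72), and the mimic arrays spread more than the control arrays in most panels.

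Regulators of cell death and metabolism were among the other large rises. PMAIP1, the BH3-only protein NOXA, had 9.67, 10.02 and 10.73 with the mimic and 8.21, 8.40 and 8.81 in the control (log2 fold change 1.72, SE 0.15). In the list of apoptosis and the BCL2 family, 3 of 33 tested genes were higher (9.09%, against 3.94% of all genes) and 0 lower, with CFLAR, an inhibitor of caspase-8, at 0.86 and BAK1, a pore-forming effector, at 0.59. TXNIP, which binds thioredoxin and limits glucose uptake, had 10.30, 10.90 and 11.53 with the mimic and 9.40, 9.64 and 9.81 in the control (log2 fold change 1.25, SE 0.16). CBR3, a carbonyl reductase, PPM1K, the mitochondrial phosphatase of branched-chain amino acid breakdown, and CDA, cytidine deaminase, rose by 1.49, 1.45 and 1.38. PLAUR, the urokinase receptor, had 9.18, 9.38 and 9.78 with the mimic and 7.94, 8.11 and 8.40 in the control (log2 fold change 1.27, SE 0.11), which was among the smaller spreads of these rises.

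Of genes with functions in signalling and at the cell surface, CD68, a lysosomal glycoprotein best known from macrophages, rose by 1.31 on the log2 scale, FYB1, an adaptor of blood cells, by 1.31, CLDN23, a claudin, by 1.29 and TNFRSF14, a receptor for LIGHT, by 1.27. The control mean of FYB1 (6.55) was near the filter limit of 6.36, and the other settings gave 1.03 to 1.73. ZFYVE26, a protein of endosomes and autophagy, rose by 1.32, RNF4BP by 1.64 and LGALS9C by 1.51, though its probe may not separate it from its paralog LGALS9. The control mean of LGALS9C (6.19) was under the limit, so this gene passed the filter only through its mimic values. The other settings gave 1.13 to 2.16. In the ERBB list, BTC, betacellulin, a ligand of EGFR, was the 1 of 17 that rose (5.88%, near the 3.94% of all genes). Its log2 fold change was 0.65, from a control mean of 6.54, near the limit. The other settings in which BTC was tested gave 0.48 to 0.92. In glycolysis and hypoxia ADM, adrenomedullin, rose by 0.75. OPTN, an autophagy receptor, rose by 1.14. Antigen presentation had 15 of 21 genes higher (71.4%, against 3.94% of all genes). Of the 21, 18 are on the interferon list, and 0 of the other 3 passed.

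The same promoter windows were searched for GAAANNGAAA, the core of the interferon-stimulated response element, or its reverse complement. It was present in at least one window of 66 of the 120 genes of the interferon list that rose and had a window (55%), and of 10 of the 56 of that list that did not pass the test (17.9%). Outside the list it was present in 17 of 241 genes that rose (7.05%), 9 of 374 that fell (2.41%) and 294 of 8876 that did not pass (3.31%). Over all 9669 tested genes with a window, those of the list among them, it was present in 396 (4.10%). Of the 40 genes outside the list that rose by more than 1, 29 had a window, and it was present in 1 of these, GCA. The match of GCA is shown beside those of 3 interferon genes, with the matching letters in capitals, on the strand of each gene. No match says only that these letters are not in the window.
GCA, chr2:162318686-162318715, plus strand: ctgactttggTTTCTGTTTCgattctcttc
IFIT3, chr10:89327865-89327894, plus strand: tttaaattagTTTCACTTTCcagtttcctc
ISG15, chr1:1013380-1013409, plus strand: tcggGAAAGGGAAACCGAAActgaagccaa
RSAD2, chr2:6877622-6877651, plus strand: ctgtttcaacTTTCAGTTTCacatgtggaa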

How the data were processed

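The data were 6 miR-4728-3p mimic and 6 control arrays. The authors deposited 2 tables of intensity per probe, one unnormalized and one normalized with the BASE software by a method not given in the sources used here; neither holds detection p-values or control probes. The unnormalized intensities were background corrected with normexp (offset 50), quantile normalized over the 12 arrays and put on the log2 scale with limma 3.58.1 in R 4.3.3. Probes with a mean above the median were tested with lmFit and eBayes, two-sided, without a block, with Benjamini-Hochberg adjustment over 20919 probes. Precision is limited by the number of arrays. Of 48803 probes, 27578 had 1 gene name in the platform annotation, updated through gene identifiers, 13 several and 21212 none; of 5203 unnamed tested probes 86 were lower and 86 higher.

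Of 1847 symbols on 55 gene lists 11 were not matched. The comparison and the lists were chosen with earlier results of these data known. Lists are described by counts and medians, without list tests. The named genes are the 30 largest falls and 25 largest rises outside the interferon list among genes past the test with no overlap of the groups, up to 5 members of each list with the smallest p, all called genes with predicted sites, the 6 largest rises within the interferon list, and ESR1, USP1, ERBB2, EGFR, GAPDH and ACTB. CEBPG, CNN2, CXCL1, EXTL3, PIM1, RABL2A, SAA1, STC2, UBL3 and XYLT2 were named after their values were seen, as were the genes so marked in the text. The limma step was tested on simulated data. Nothing in the labels says what arrays of the same number share. Deviations from the group means of arrays with the same number correlated by -0.12 to 0.06. With 6 numbers and after quantile normalization, this check cannot exclude a pairing. Sequences are from RefSeq (GRCh38.p14), whose table matched promoters of 9669 of the 11820 genes; 3' untranslated regions were not used here. Figures were drawn with matplotlib 3.10.9.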

Additional observations from a re-analysis of the deposited data

Results flagged for a closer look

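Among 156 groups of 6 values, 11 held a sample far from the other 5, by Dixon's criterion on the gap at the end of the group, where chance gives about 7.8. The groups came from the named largest falls and rises, the called genes with predicted sites and the tested genes that the study names. Also screened were each array's raw median and its means of the core interferon genes and of the falls. The other genes of the text were not screened. All values are log2 intensities. In mimic replicate 2, SRF had 8.85, TMEM158 had 7.33 and RAB11FIP1 had 9.55, each the lowest of the mimic arrays. In control replicate 1, PID1 had 9.105 and CREB3L2 had 8.88, both the lowest of the control arrays, and HNRNPA0 had 10.43, the highest. In control replicate 4, MEF2D had 9.41 and SNX27 had 11.15, both the highest. In control replicate 5, RABL2B had 8.002 and GAPDH had 14.29, both the lowest, and in control replicate 3 ERBB2 had 8.85, the lowest.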

How the results depend on the processing

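Of 196 called genes followed through 20 other settings (19 for BTC, FZD5 and PLAAT2, which were not tested in every setting), none changed direction. In the settings where they were tested, 155 always passed the limma test and 41 lost it in some, with adjusted p up to 0.142. Single arrays left out ended 12 (without mimic replicate 3) to 33 (without mimic replicate 2) of these calls. The other settings gave 331 to 531 lower and 408 to 498 higher genes, and 330 to 529 and 251 to 333 outside the interferon list. Leaving out each array in turn gave 334 to 437 lower and 395 to 470 higher genes, 333 to 436 and 241 to 310 outside the list, and 13 to 16 of the predicted genes lower. Genes lower by more than 1 numbered 8 (8 to 11 without single arrays), 7 on the authors' normalized values and without background correction, and 13 with an offset of 16. With the replicate block, 348 genes were lower and 417 higher, 342 and 411 of them shared with the fit without the block. Whether the numbers pair the arrays is not known. The log2 fold change of GAPDH, which did not pass the test, was -0.020 to 0.0548 without single arrays. Signals near the filter limit of 6.36 left little room for a measurable fall.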

Other observations

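Some gene families were picked out after their values were seen, from their symbols alone. All 3 tested phospholipases of the PLAAT family rose, where 3.94% of all genes did: PLAAT4 by a log2 fold change of 2.41, PLAAT2 by 1.17 and PLAAT3 by 0.51, the last with a call lost under some settings. The other settings in which PLAAT2 was tested gave 0.89 to 1.64. Of 35 tested replication-dependent histone genes, 6 rose (17.1%, against 3.94% of all genes) and 0 fell, with a family median of 0.03; H2AC18, the first of them, had a log2 fold change of 0.91 and H2AC20 of 0.68, and probes of such near-identical genes may not separate them. Of 5 tested genes of the CMTM family, whose members include regulators of PD-L1 stability, 3 fell (60%, against 3.80% of all genes) and 0 rose. CMTM4, CMTM7 and CMTM8 fell by 0.50, 0.43 and 0.36 on the log2 scale, with the calls of CMTM7 and CMTM8 lost under some settings. Of 50 tested RAB GTPases of membrane traffic 5 fell (10%, against 3.80% of all genes) and 3 rose (6%), with RAB40B at -0.48 and RAB5A at 0.37 and both calls lost under some settings. Both tested syndecans, SDC1 and SDC4, fell, where 3.80% of all genes did.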
